A study of Mus musculus with 8 samples.

Results

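Enzymes that chemically modify drugs, toxins, steroids and lipids were compared between wildtype colons and colons in which epithelial Ihh had been targeted. The set was chosen by gene symbol, without regard to measured values. It comprises cytochrome P450 families 2 to 4 (CYP2, CYP3, CYP4), UDP-glucuronosyltransferase families 1 and 2 (UGT1, UGT2), glutathione transferases (GST), microsomal glutathione transferases (MGST) and sulfotransferases (SULT). On the array these were 143 of 25697 probes, for 103 of 16593 named genes. The 8 whole colons, 4 of each genotype and all on a C57BL/6 background, had been hybridised to the same Illumina beadchip. Knockout mice were Villin-CreERT2-Ihhfl/fl, in which a tamoxifen-activated recombinase made in intestinal epithelium removes floxed Ihh, the gene of the secreted ligand Indian hedgehog. Wildtype mice were Villin-CreERT2-Ihh+/+ and so carried the same recombinase. Both genotypes received 1 mg tamoxifen by intraperitoneal injection daily for 5 days, and tissue was collected at day 7. The ages of the mice are not given in the sources used here, and the numbered colons were taken as separate mice.

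These enzymes work in sequence. P450s oxidise fat-soluble compounds in the endoplasmic reticulum, and the transferases then attach glucuronic acid, glutathione or sulfate, which makes the products soluble enough to be exported. In the gut they are made mainly by differentiated absorptive cells, and nuclear receptors such as PXR (Nr1i2), the aryl hydrocarbon receptor AHR and the stress-responsive factor NRF2 (Nfe2l2) are known to control many of them.

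The labels held for the targeted gene, since Ihh had log2 intensities of 10.17 to 10.50 in wildtype and 9.03 to 9.56 in knockout colons (limma difference -1.05, SE 0.149, adjusted p = 0.130). Knockout 4 stood apart from the other arrays across all genes. Its mean correlation with the others was 0.956, against 0.964 to 0.977 for the other 7, while its mean signal of 924 lay within the range of 902 to 1258 over all arrays. Its Ihh level of 9.50 was within the knockout range. Wildtype colons were at beadchip positions 1 to 4 and knockout colons at 5 to 8, so that position ran along with genotype. A male pattern of Xist and Y-linked probes was seen in 1 wildtype and 3 knockout mice, knockout 4 among them. Markers of absorptive colonocytes and goblet cells were detected. Of 10 hepatocyte markers on the array, 5 (Alb, Fgb, Fga, Serpina1a and Tat) were detected on 0 arrays. Ttr, from the same list, was at log2 intensities of 10.68 to 11.98, and Apoa2 at 5.03 to 6.62.

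Of the 103 enzyme genes, 57 were detected (on 4 or more of the 8 arrays, with a detection p under 0.05) and could be tested, and 39 were detected on 0 arrays. Testing covered 18 of 20 GST, 3 of 3 MGST and 3 of 3 UGT1 genes. It covered 7 of 13 CYP4 and 6 of 12 SULT genes. The share was lower in CYP2 (15 of 36), CYP3 (2 of 6) and UGT2 (3 of 10). Among those detected on 0 arrays were Sult1e1 and the P450 genes Cyp3a11, Cyp2c29, Cyp2a5 and Cyp4a14, which are best known from mouse liver.

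No enzyme gene passed the adjusted threshold. By limma with Benjamini-Hochberg adjustment over all 14754 probes tested, 0 of 57 had an adjusted p under 0.05, and the smallest was 0.407. Over all 80 tested enzyme probes the smallest was 0.353, for a second probe of Gstp1. Of all 10184 named genes tested, 2 passed, or 0.0196%. At an unadjusted p under 0.05, 2 enzyme genes had higher values and 1 had lower values in knockout colons, where the same criterion took 6.7% of all genes as higher and 4.34% as lower. The groups did not overlap in 1 enzyme gene that was higher and 2 that were lower, against 4.85% and 2.83% of all genes. The counts are near or below these background shares. The median log2 change was -0.21 over the 57 genes and -0.0047 over all genes. Of the 57 genes 40 lay below 0 (70.2%), against 50.9% of all genes. Log2 values here are background corrected intensities with an offset of 16, so that changes of dim probes are understated.

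One colon carried most of that shift. Knockout 4 had the lowest value of the 8 colons in 39 of 57 enzyme genes (68.4%), while it was the lowest in 25.4% and the highest in 23.3% of all genes. No other mouse was the lowest in more than 6 enzyme genes. Of the 36 P450, UGT and SULT genes it was lowest in 30 and highest in 1. Of the 21 GST and MGST genes it was lowest in 9 and highest in 6. Without knockout 4 the median over the enzyme genes was 0.024 and 25 of 57 lay below 0 (43.9%, against 48.6% of all genes). Again 0 passed, while an unadjusted p under 0.05 took 2 as higher and 1 as lower, beside 5.77% and 3.41% of the 10044 genes then tested.

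**Figure D1:**
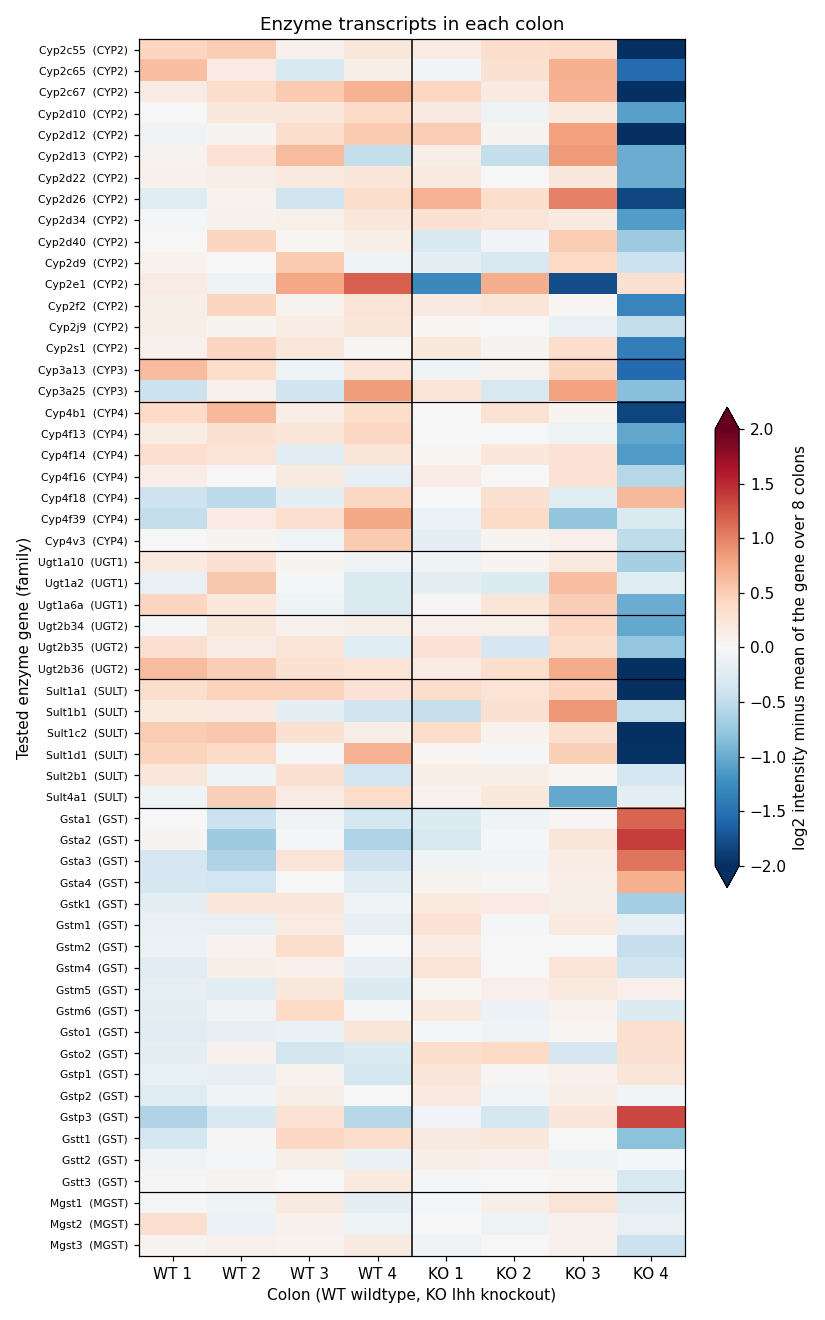
Log2 intensity of each tested enzyme gene (rows, grouped by family) in each colon (columns, WT wildtype and KO knockout), as the difference from the gene's mean over the 8 colons; the colour scale ends at 2 in each direction. The column of knockout 4 is blue in most P450, UGT and SULT rows, 30 of 36 of which have their lowest value there, and red in the 4 alpha class GST rows.

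The 3 Cyp2c genes tested, P450s known for oxidising arachidonic acid and drugs, were each lowest in knockout 4. Cyp2c55, a P450 characteristic of the mouse colon, had log2 intensities of 14.85, 14.91, 14.51 and 14.65 in wildtype 1 to 4, and of 14.58, 14.77, 14.80 and 12.28 in knockout 1 to 4. Knockouts 1 to 3 lay within the wildtype range and knockout 4 far below it. On the deposited linear scale its signal was 4456 in knockout 4 and 24189 to 35053 in the other 7 colons. The genotype difference of -0.62 (SE 0.511, limma adjusted p = 0.645) became -0.016 (SE 0.131) without knockout 4.

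Cyp2c67 had values of 10.28 to 10.81 in wildtype and 10.29 to 10.80 in knockouts 1 to 3, against 7.08 in knockout 4. That is 11.0-fold below the mean of the other knockouts. The gene was singled out after its values were seen. Cyp2c65 was at 9.59 in knockout 4 and at 10.82 to 11.83 in the other 7 colons.

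All 8 Cyp2d genes on the array were tested. The Cyp2d subfamily is a tandem cluster related to the human drug-metabolising enzyme CYP2D6, and its members are so alike in sequence that probes may share signal, which was not tested. Knockout 4 was the lowest colon in 8 of 8, and the median difference from the other knockouts was -1.16. Cyp2d10 was at 9.85 to 10.22 in wildtype, 9.74 to 10.03 in knockouts 1 to 3 and 8.75 in knockout 4 (genotype difference -0.40, SE 0.270). Cyp2d26 ran the other way in the remaining knockouts, with values of 9.35, 9.66, 9.18 and 9.93 in wildtype and 10.28, 9.93 and 10.59 in knockouts 1 to 3, against 7.76 in knockout 4. Its difference without knockout 4 was 0.74 (SE 0.221, limma adjusted p = 0.457), and with all mice 0.11 (SE 0.548). Cyp2d26 is named for this contrast, after its values had been seen, and not by the naming rule.

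Among the other CYP2 genes, Cyp2f2, known in mouse lung for activating naphthalene, was at 9.05 to 9.44 in the other 7 colons and 7.68 in knockout 4. Cyp2s1, a P450 of epithelia outside the liver, was at 11.71 to 12.11 and 10.30. Cyp2j9 differed little in size but without overlap, with 7.77 to 7.96 in wildtype and 7.25 to 7.75 in knockout colons (difference -0.28, SE 0.135, adjusted p = 0.478).

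Cyp2e1, the ethanol-inducible P450, followed a different pattern. Its log2 intensities were 9.70, 9.43, 10.32 and 10.73 in wildtype 1 to 4 and 8.24, 10.26, 7.76 and 9.84 in knockout 1 to 4. Knockouts 1 and 3 lay below all wildtype colons, and knockouts 2 and 4 within their range. The difference of -1.02 (SE 0.558, adjusted p = 0.518) was the largest in size among the 57 genes. The adipocyte marker score (mean centred log2 values of 4 genes) was also lowest in knockouts 3 and 1, at -0.67 and -0.49. It was -0.45 in knockout 4 and -0.048 to 0.80 in the others. Adipoq and Cidec were lowest in knockouts 3 and 1. In contrast, Pck1 was lowest in knockout 4 (6.45), with 7.86 and 7.71 in knockouts 1 and 3 and 7.67 to 7.91 in wildtype. Lep was at 6.47, 6.51 and 6.50 in knockouts 1, 3 and 4. The summed linear level of the markers was 2313 to 4231 in wildtype and 1190 to 3274 in knockout colons. Of the 7 such markers on the array Retn was detected on 0 arrays. The part of the adipocyte markers in the Cyp2e1 result was not tested.

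Only 2 CYP3 genes could be tested. Cyp3a13, the CYP3A enzyme of mouse intestine, was at 13.04, 12.79, 12.31 and 12.67 in wildtype and at 12.33, 12.50, 12.84 and 10.86 in knockout 1 to 4. Its 3 tested probes gave differences of -0.57, -0.50 and -0.51 (SE 0.389, 0.390 and 0.384), none past the threshold. Without knockout 4 the difference was -0.15 (SE 0.197).

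CYP4 enzymes hydroxylate the far end of fatty acids and eicosanoids, and Cyp4f members are known to inactivate leukotrienes. Cyp4f13 was the lower gene with the smallest p, with values of 11.10, 11.27, 11.20 and 11.37 in wildtype and 10.96, 10.97, 10.86 and 9.92 in knockout colons. Each knockout lay below each wildtype colon, with a difference of -0.56 (SE 0.231, limma adjusted p = 0.440). In contrast to the Cyp2c genes, a difference of -0.31 (SE 0.107, adjusted p = 0.475) was left without knockout 4.

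Cyp4f14 (11.26 in knockout 4, 12.17 to 12.73 in the others) and Cyp4f16 (9.75 and 10.15 to 10.60) differed mainly through knockout 4. Cyp4f18, a leukotriene hydroxylase of mouse neutrophils, was highest in knockout 4 at 9.28, with 8.10 to 9.05 in the others. Cyp4b1 was at 8.19 to 8.71 in wildtype, 8.06 to 8.36 in knockouts 1 to 3 and 6.23 in knockout 4 (difference -0.75, SE 0.420, and -0.26, SE 0.148, without knockout 4).

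By family, the median log2 change was -0.31 in each P450 family (CYP2, CYP3 and CYP4), with 14 of 15, 2 of 2 and 6 of 7 genes below 0. Without knockout 4 these medians were -0.016, 0.039 and -0.14. The score of CYP2, the mean centred log2 value of its genes in a colon, was -1.27 in knockout 4 and 0.077 to 0.30 in the other 7 colons.

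**Figure D2:**
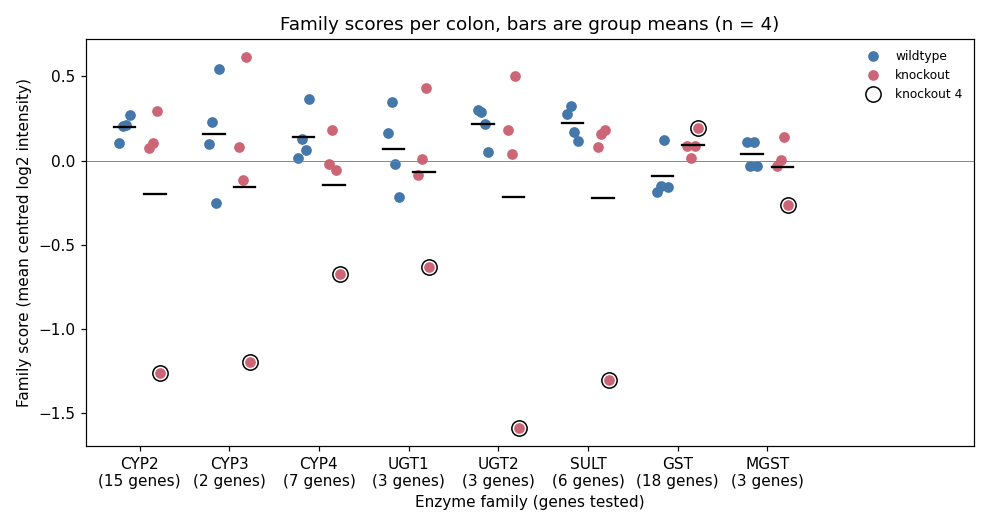
Score of each enzyme family in each colon, as the mean over its tested genes of log2 intensity after each gene's mean over 8 colons is subtracted; black bars are group means (n = 4) and the ring marks knockout 4. Knockout 4 lies below the other 7 colons in CYP2 (-1.27), CYP3 (-1.20), CYP4 (-0.67), UGT1 (-0.64), UGT2 (-1.59), SULT (-1.30) and MGST (-0.27), and above them in GST (0.19).

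Glucuronosyltransferases conjugate bilirubin, steroids and phenols. Ugt2b36 was at 8.97, 8.84, 8.65 and 8.61 in wildtype and at 8.50, 8.70, 9.09 and 5.37 in knockout 1 to 4, where knockout 4 was the only colon without detection (3 of 4 knockouts detected). A value that is not above background gives no measured fold, so none is stated. Ugt2b34 (10.10 in knockout 4, 11.08 to 11.54 in the others) and Ugt2b35 (7.65 and 8.08 to 8.76) showed smaller drops. The 3 UGT2 genes had a median change of -0.24, and of -0.0041 without knockout 4.

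Transcripts of the Ugt1 locus share their last exons, so its probes may not separate them. Ugt1a10 was at 12.60 to 12.99 in wildtype, 12.59 to 12.88 in knockouts 1 to 3 and 12.02 in knockout 4. Ugt1a6a was at 10.10 to 10.84, 10.42 to 10.89 and 9.40. The UGT1 median was -0.13, with 3 of 3 genes below 0, and 0.027 without knockout 4.

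Sulfotransferases had a family median of -0.60, with 5 of 6 genes below 0, and of -0.078 without knockout 4. Sult1a1, the main phenol sulfotransferase, had the tightest values of the family outside knockout 4. They were 13.80, 13.90, 13.90 and 13.73 in wildtype and 13.80, 13.72 and 13.88 in knockouts 1 to 3, against 10.84 in knockout 4. This is 7.78-fold below the mean of the other knockouts. The linear signal was 1730 in knockout 4 and 11594 to 18741 in the others. With all mice the difference was -0.77 (SE 0.612, adjusted p = 0.630), and without knockout 4 it was -0.035 (SE 0.103).

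Sult1c2 was at 9.28 in knockout 4 and 11.57 to 12.03 in the others, and Sult1d1, which sulfates catecholamines in the mouse, was at 9.70 and 11.63 to 12.37. A dim second probe of Sult1d1 was higher in knockout colons (0.32, SE 0.198). Sult4a1, a sulfotransferase of neurons, was lowest in knockout 3 at 7.30, with 8.13 to 8.80 in the others (difference -0.46, SE 0.264).

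**Figure D3:**
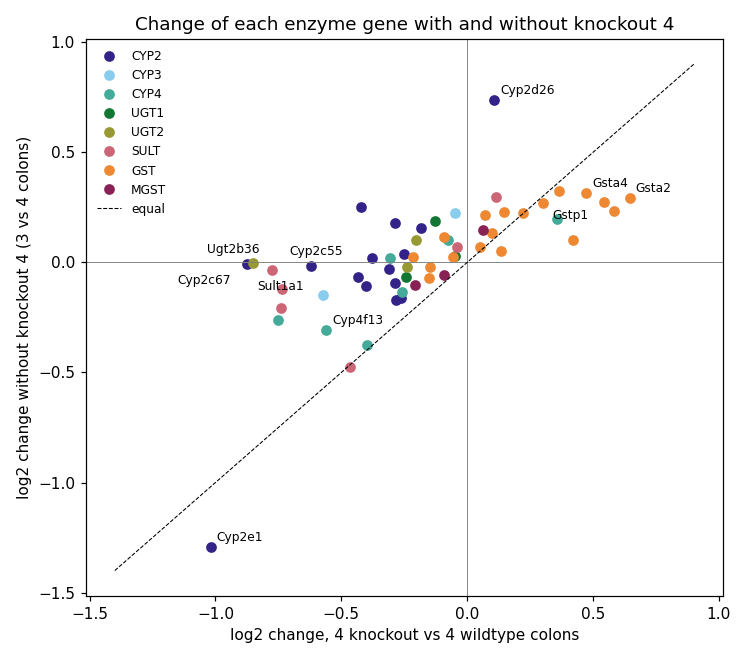
Log2 change of each tested enzyme gene, knockout minus wildtype, with all 8 colons (horizontal axis) and without knockout 4 (vertical axis), coloured by family; points on the dashed line are equal in both. Sult1a1, Cyp2c55, Cyp2c67 and Ugt2b36 lie near 0 on the vertical axis, while the GST genes lie mostly above 0 on both axes.

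Glutathione transferases were the family with a median above 0. Of 18 genes 13 were above 0, with a median of 0.14, and without knockout 4, 16 of 18 were above 0 with a median of 0.17. The 4 alpha class genes, whose products detoxify lipid peroxides and other electrophiles, were all above 0 with a median of 0.51. Their values in knockout 4 were the highest of the 8 colons in 4 of 4, the opposite of its P450 values. With beadchip position as a linear term, the differences of Gsta1 to Gsta4 were -0.32, -0.16, -0.32 and -0.064. Position ran along with genotype and knockout 4 was at the last position, 8, so this fit cannot separate position, genotype and that colon.

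Gsta4, which conjugates the lipid peroxidation product 4-hydroxynonenal, had the smallest p of the 57 genes as read from their brightest probes. Its log2 intensities were 10.16, 10.12, 10.49 and 10.27 in wildtype and 10.57, 10.52, 10.62 and 11.21 in knockout colons, so each knockout lay above each wildtype. The difference was 0.47 (SE 0.173, limma adjusted p = 0.407), and 0.31 (SE 0.120, adjusted p = 0.516) without knockout 4.

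The other alpha class genes overlapped between genotypes. Gsta3 was at 11.12, 10.86, 11.71 and 11.04 in wildtype and 11.37, 11.40, 11.60 and 12.53 in knockout colons (difference 0.54, SE 0.283). Gsta2 was at 11.00, 10.22, 10.91 and 10.31 in wildtype and 10.61, 10.91, 11.18 and 12.31 in knockout colons (0.65, SE 0.356). Gsta1 was at 10.94 to 11.39 in wildtype, 11.11 to 11.40 in knockouts 1 to 3 and 12.54 in knockout 4 (0.42, SE 0.294). Gsta1 and Gsta2 are close copies, and their probes may share signal.

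**Figure D4:**
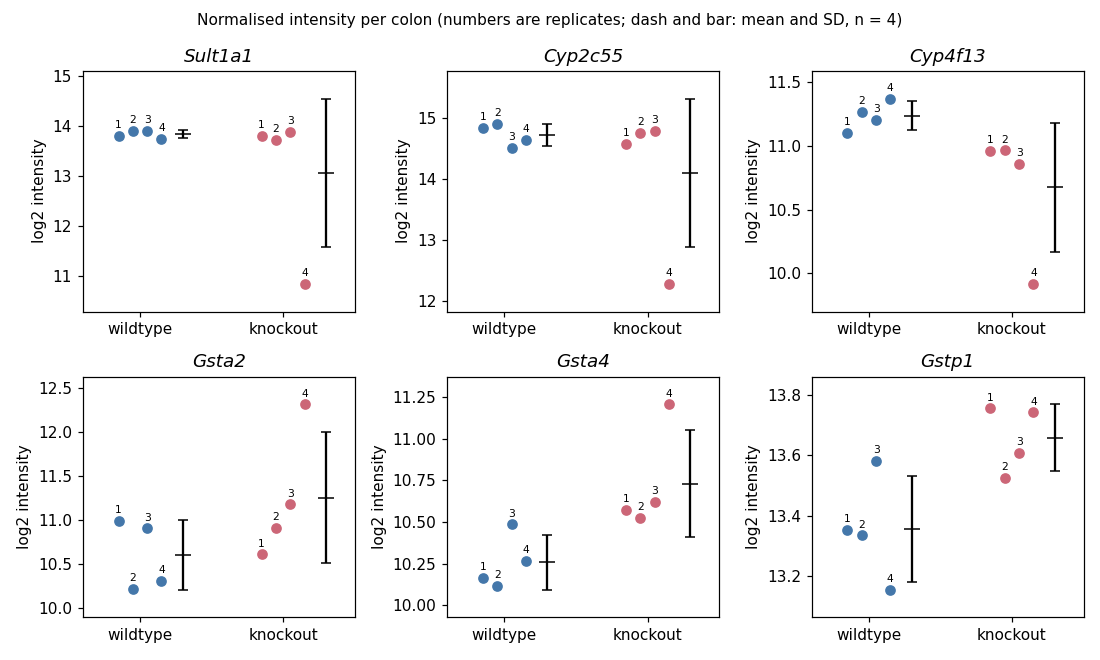
Log2 intensity per colon of 6 enzyme genes, numbered by replicate, with the group mean and SD (n = 4) beside the points; the vertical axes differ and do not start at 0. Sult1a1 and Cyp2c55 are low in knockout 4 alone, while in Cyp4f13 and Gsta4 all 4 knockouts lie on one side of the wildtype colons.

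Pi class genes were next. Gstp1, the main glutathione transferase of many epithelia, was at 13.35, 13.34, 13.58 and 13.16 in wildtype and 13.75, 13.52, 13.61 and 13.74 in knockout colons. Wildtype 3 overlapped with the knockouts, knockout 4 was not the highest, and the SD was 0.174 and 0.110 (n = 4 each). The difference was 0.30 (SE 0.124, limma adjusted p = 0.440), and 0.27 (SE 0.129) without knockout 4. Its other 2 tested probes gave 0.46 (SE 0.124, limma adjusted p = 0.353, the smallest of any enzyme probe) and 0.44 (SE 0.265). Gstp2 (0.099, SE 0.121), a near copy of Gstp1, and Gstp3 (0.58, SE 0.358) belong to the same class. Gstp3 reached 9.60 in knockout 4 against 7.66 to 8.55 in the others.

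The mu class differed less, with 3 of 5 tested genes above 0 and a median of 0.070. Gstm5 was at 11.16 to 11.66 in wildtype and 11.48 to 11.63 in knockout colons (0.22, SE 0.133), Gstm1 differed by 0.15 (SE 0.141) and Gstm2 by -0.15 (SE 0.164). In the omega class, which reduces dehydroascorbate, Gsto1 differed by 0.13 (SE 0.145). Gsto2 differed by 0.37 (SE 0.185), while its second tested probe gave -0.061 (SE 0.241). The membrane-bound enzymes Mgst1 (0.063, SE 0.139), Mgst2 (-0.094, SE 0.130) and Mgst3 (-0.21, SE 0.131), which protect membranes or form leukotriene C4, did not pass either, with a median of -0.094.

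Since the alpha class genes were all highest in knockout 4 and Cyp2c67 was far lower there, promoters of Gsta1, Gsta2, Gsta3 and Cyp2c67 are shown. No promoter was available for Gsta4, so the motifs describe only 3 alpha class genes. Sequences are from RefSeq (GRCm38.p6), 5′ to 3′ on the strand of the gene, and cover the 250 bases before the start site listed there. The windows of Gsta2, Gsta3 and Cyp2c67 overlap the annotated span of their own gene, and that of Gsta1 does not. Capitals mark matches, on either strand, to the core of the antioxidant response element that NRF2 binds (TGACNNNGC), the core of the AHR element (GCGTG) or an element of the liver and gut factor HNF4 (CAAAGTCCA).
Gsta1: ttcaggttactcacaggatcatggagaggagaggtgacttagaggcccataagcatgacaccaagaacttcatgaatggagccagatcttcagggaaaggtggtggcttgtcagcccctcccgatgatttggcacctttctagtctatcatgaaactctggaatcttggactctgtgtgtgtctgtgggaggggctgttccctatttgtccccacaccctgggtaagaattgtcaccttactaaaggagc
Gsta2: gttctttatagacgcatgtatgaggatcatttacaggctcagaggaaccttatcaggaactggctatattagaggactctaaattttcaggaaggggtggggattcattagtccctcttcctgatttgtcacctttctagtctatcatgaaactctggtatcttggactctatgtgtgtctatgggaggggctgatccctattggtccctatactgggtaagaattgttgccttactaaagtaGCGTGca
Gsta3: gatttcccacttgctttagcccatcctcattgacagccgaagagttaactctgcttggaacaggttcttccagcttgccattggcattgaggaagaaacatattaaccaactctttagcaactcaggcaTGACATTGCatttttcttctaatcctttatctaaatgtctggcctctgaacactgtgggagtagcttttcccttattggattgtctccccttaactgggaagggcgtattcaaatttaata
Cyp2c67: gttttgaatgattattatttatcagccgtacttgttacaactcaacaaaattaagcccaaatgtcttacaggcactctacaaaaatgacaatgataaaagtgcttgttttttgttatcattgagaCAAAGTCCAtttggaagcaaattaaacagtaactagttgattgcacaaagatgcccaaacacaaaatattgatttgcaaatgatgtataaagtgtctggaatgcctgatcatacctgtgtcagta
The Gsta3 promoter, at chr1:21240335-21240584 (plus strand), holds 1 antioxidant core, 121 bases before the start at its first base. In Gsta2, at chr9:78347146-78347395 (minus strand), an AHR core lies 7 bases before the start. Gsta1, at chr9:78230419-78230668 (plus strand), holds none of the motifs, and its window is identical to that of Gsta2 at 183 of 240 aligned bases. Cyp2c67, at chr19:39649043-39649292 (minus strand), holds an HNF4 element 125 bases before the start, as does Cyp2c65 at 116 bases. Of 50 tested enzyme genes with a listed promoter, 4 held the antioxidant core (8%, against 10.15% of 27025 promoters of all genes). The AHR core was in 12 (24%, against 28.21%) and the HNF4 element in 2 (4%, against 0.381%). Those 2 were Cyp2c65 and Cyp2c67, of the same subfamily, while the other tested Cyp2c gene, Cyp2c55, held no HNF4 element. The motifs can overlap, and a match describes letters, not binding.

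Genes that act with these enzymes were read from lists. Of the 11 tested genes for glutathione supply and NRF2 targets, 11 were above 0 with a median of 0.29, and 0 passed the adjusted threshold. The unadjusted p was under 0.05 in 1 gene, which was higher, beside 6.7% of all genes. That gene was Gpx2, the gastrointestinal glutathione peroxidase. It was at 13.84, 13.93, 14.26 and 13.49 in wildtype and 14.48, 14.32, 14.44 and 15.69 in knockout colons, without overlap (0.85, SE 0.306). Without knockout 4 the Gpx2 difference was 0.55 and the list median 0.14.

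Knockout 4 was the highest colon in 8 of these 11 genes. Slc7a11, which imports cystine for glutathione synthesis, was at 9.73 in knockout 4 and 5.33 to 6.87 in the others. It was chosen after its values were seen. Hmox1, which degrades haem, was at 7.98 against 6.16 to 7.33, and Gss, glutathione synthetase, at 10.38 against 9.52 to 10.02.

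**Figure D5:**
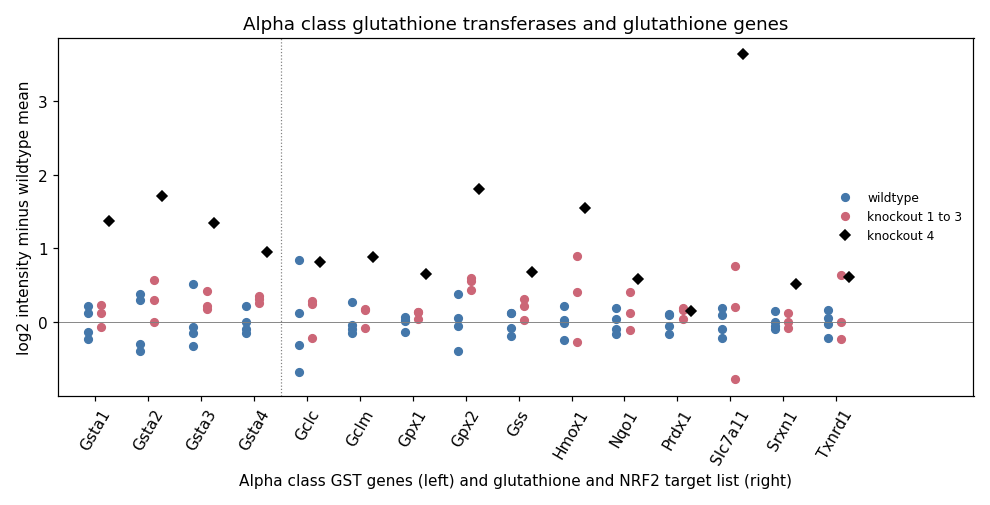
Log2 intensity minus the wildtype mean of each gene, for the 4 alpha class GST genes and the 11 tested genes of the glutathione and NRF2 target list; circles are single colons and the diamond is knockout 4. Knockout 4 is highest in all 4 alpha class genes and in 8 of 11 list genes, with Slc7a11 at 9.73 on the log2 scale against 5.33 to 6.87 in the others.

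Of 18 other oxidising, reducing and hydrolysing enzymes, 6 were above 0 and 12 below, with a median of -0.20. At an unadjusted p under 0.05, 2 of the 18 were higher, beside 6.7% of all genes. These were Ephx1, microsomal epoxide hydrolase (0.51, SE 0.170), and Akr1b8, an aldo-keto reductase (0.84, SE 0.280). Without knockout 4 they differed by 0.39 and 0.61. Cbr3, a carbonyl reductase, differed by 0.42 (SE 0.207). Knockout 4 was the lowest colon in 10 of the 18.

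Other conjugating enzymes had a median of -0.14 (9 tested), drug transporters -0.18 (9 tested) and P450 electron donors 0.056 (4 tested). Among the electron donors Cyb5r1, a cytochrome b5 reductase, differed by 0.41 (SE 0.170). It was the only gene of these lists with an unadjusted p under 0.05, a criterion that took 6.7% of all genes as higher. Regulators had a median of -0.12, with 2 of 10 above 0. Arnt, the partner of AHR, differed by 0.38 (SE 0.171) and Nfe2l2, which encodes NRF2, by -0.41 (SE 0.191). Ahr itself and its target Cyp1a1 were detected on 0 arrays. In these 6 lists 0 of 61 genes passed the adjusted threshold.

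Markers of absorptive colonocytes, with a median change of -0.26 (-0.080 without knockout 4), were also low in knockout 4. Their score over 14 tested genes was -0.59 there and -0.05 to 0.26 in the other 7 colons. Knockout 4 was lowest in 9 of 14 markers and highest in 1. Their summed linear level was 115720 to 144149 in wildtype and 81334 to 127123 in knockout colons, with knockout 4 at the lower end, and Slc16a1 was detected on 0 arrays. Car4 and Krt20 are examples chosen after their values were seen. Car4, a carbonic anhydrase of surface colonocytes, was at 11.71 in knockout 4 and 13.83 to 14.25 in the others, while Krt20 was at 13.60 and 13.72 to 13.99. Guca2b went the other way, at 11.40 in knockout 4 and 10.70 to 11.34 in the others. Scnn1b, Scnn1g, Ceacam1 and Clca4a were not lowest in knockout 4 either. With the colonocyte score as a term in the limma fit, the family medians were 0.24 for CYP2, 0.23 for CYP3, -0.012 for CYP4, 0.18 for UGT1, 0.26 for UGT2 and 0.18 for SULT, and 0.11 for GST. Because the score mainly sets knockout 4 apart, the term largely takes up that colon. The fit thus cannot separate colonocyte content from other traits of knockout 4. In whole colon, fewer cells of a type and less RNA per cell cannot be told apart.

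The other marker lists had median changes of -0.0041 (goblet cells, 7 tested), -0.50 (smooth muscle, 11), -0.14 (fibroblasts, 8), -0.60 (adipocytes, 4) and 0.35 (macrophages, 6). Hepatocyte markers had 2 tested genes, Ttr and Apoa2 (median -0.20). Skeletal muscle markers (median 0.53, 9 tested) and skin markers (-0.85, 10 tested) varied widely between colons of both genotypes. Knockout 4 was among the colons with high skeletal muscle markers, with a score of 1.72 in a range of -1.89 to 2.85. The part of these markers in the enzyme values was not tested beyond the fits with scores as terms.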

How the data were processed

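Total RNA of 8 whole colons was hybridised to Illumina arrays, 1 array per colon. Per the file headers, the deposited table gives, for every probe and array, a mean bead intensity together with a detection p-value. Per the submitters' processing notes the software was GenomeStudio. Its version and settings are not given in the sources used here. An alternative used the authors' processed intensity table, whose steps are not stated. The deposited arrays hold no read depth, so their number limits the precision. Names came from the platform annotation, with 1 symbol for 23978 of 25697 probes, none for 1719 and several for 0.

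In R 4.3.3 with limma 3.58.1, signals were background corrected from the detection p-values (normexp, offset 16), quantile normalized and log2 transformed (neqc). Probes detected on 4 or more of 8 arrays, at a detection p under 0.05, were tested with lmFit and eBayes, two-sided, with Benjamini-Hochberg adjustment over 14754 probes. A gene was read from its tested probe with the highest mean. Of the 57 enzyme genes, 16 had several tested probes, which differed in sign in 6. The fit was tested on simulated data. The members and lists were chosen with earlier results of these data known. Genes were named by rule, with exceptions stated. It took the 12 smallest p per direction and up to 3 of highest mean per family. It also took up to 3 of smallest p per pathway list. Enzymes detected on at least 3 arrays of 1 genotype and 0 of the other were included too (0 met this). Some genes that the rule took are not described, among them Cyp4v3, Cyp3a25 and several of the pathway lists. P-values measure the spread between colons, which the labels do not state to be separate animals. Alternatives covered background, normalization, filters, covariates, array weights, variance prior, probe choice and leaving out each colon.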

Additional observations from a re-analysis of the deposited data

Results flagged for a closer look

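Within a genotype, a colon was picked out where its gap to the nearest of the other 3 made up more of the range than Dixon's limit for 4 values allows. This held in 16 of 114 groups of 4 values for single enzyme genes, where chance gives about 5.7, and 13 of the 16 were knockout 4. Genes share their colon, so these are not independent.

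Knockout 4 was the low value in 12 genes, which were Sult1a1 (10.84), Sult1c2 (9.28), Sult2b1 (10.09), Cyp2c55 (12.28), Cyp2c67 (7.08), Cyp2d34 (9.53), Cyp2f2 (7.68), Cyp2s1 (10.30), Cyp4b1 (6.23), Cyp4f13 (9.92), Ugt2b36 (5.37) and Gstk1 (11.04), all log2 intensities. It was the high value in Gsta4 (11.21). Knockout 3 was low in Gsto2 (5.89) and high in Ugt1a2 (6.46), and wildtype 3 was high in Gstm1 (12.46).

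Of 16 groups of family scores, 3 were picked out, where chance gives about 0.8. They were CYP2 in knockout 4 (-1.27), SULT in knockout 4 (-1.30) and GST in wildtype 3 (0.12).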

How the results depend on the processing

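No enzyme gene passed the adjusted threshold under any alternative run, with a smallest adjusted p (limma) between 0.285 and 0.985. The replicate numbers did not pair the colons, since same-numbered colons correlated at 0.14, 0.21, -0.18 and -0.038 in their deviations from the group means. With the replicate block 0 genes passed, 2 had an unadjusted p under 0.05, and the family medians were unmoved in this balanced design. That number was 0 when the fit held beadchip position, the sex pattern, or scores of skin and skeletal muscle (3.7%, 6.91% and 8.11% of all genes), against 3 with no such term (11% of all genes). It ran from 1 to 5 when single colons were left out (5, or 8.93%, without knockout 3, against 9.42% of all genes). Genes whose groups did not overlap numbered 1 with median scaling (1.75%, against 4.13% of all genes) and 3 to 8 without single colons, where 3 values face 4 and the share over all genes also rises. They were 8 without knockout 3 (14.3%, against 11.2%), 7 without wildtype 3 (12.3%, against 15.1%) and 5 without knockout 2 (8.77%, against 14.4%). Leaving out single colons moved the SULT median between -0.74 and -0.078, CYP2 between -0.53 and -0.016, and CYP3 between -0.81 and 0.039, the upper end each time without knockout 4. Without knockout 4 CYP4 (-0.14), not SULT, had the lowest median. With no filter on dim probes the SULT median was 0.0035. With the position term the medians were 0.49 for CYP2, 0.29 for UGT1, 0.56 for UGT2, 0.012 for GST, 0.16 for MGST and 0.49 for SULT. Position ran along with genotype and knockout 4 was at position 8, so fits with this term cannot separate position, genotype and that colon. With the colonocyte score, which mainly sets knockout 4 apart, the medians were 0.24 for CYP2, -0.012 for CYP4 and 0.18 for SULT. Knockout 4 was lowest in 37 to 40 of 57 genes under other values, in 45 of 103 without the filter and in 34 of 49 with detection on all arrays, an alternative chosen after seeing the data. Signs of single genes turned with the position term in Gsta1 -0.32, Gsta2 -0.16, Gsta3 -0.32, Gsta4 -0.064, Gstp3 -0.53, Gstm2 0.094, Gsto1 -0.38, Mgst2 0.16, Cyp2c55 0.95, Cyp2c65 0.91, Cyp2c67 0.74, Cyp2d10 0.079, Cyp2f2 0.49, Cyp2s1 0.59, Cyp3a13 0.56, Cyp4b1 0.52, Cyp4f14 0.52, Cyp4f16 0.45, Cyp4f18 -0.50, Ugt1a10 0.29, Ugt1a6a 0.93, Ugt2b34 0.33, Ugt2b35 0.56, Ugt2b36 1.2, Sult1a1 1.01, Sult1c2 1.03, Sult1d1 0.30, Nfe2l2 0.095, Slc7a11 -1.66, Ephx1 -0.082 and Cbr3 -0.35. With the colonocyte score they turned in Gsta1 -0.040, Gstm2 0.0048, Gsto1 -0.034, Cyp2c55 0.31, Cyp2c65 0.48, Cyp2c67 0.34, Cyp2d10 0.0072, Cyp2f2 0.11, Cyp2s1 0.24, Cyp3a13 0.13, Cyp4f14 0.21, Cyp4f16 0.21, Cyp4f18 -0.012, Ugt1a10 0.070, Ugt1a6a 0.43, Ugt2b34 0.26, Ugt2b35 0.15, Ugt2b36 0.44, Sult1a1 0.31, Sult1c2 0.22, Sult1d1 0.062 and Slc7a11 -0.37. Array weights turned Cyp4f16 0.037. Leaving out single colons also gave -0.57 for Cyp2c65, -0.56 for Cyp2s1, -0.45 for Cyp4f14 and -0.31 for Ugt1a6a, all without knockout 3. Without knockout 4, 15 of the 57 enzyme genes turned, of which 6 are among those described above, with values of Cyp2c65 0.18, Cyp2s1 0.018, Cyp4f14 0.018, Cyp4f16 0.10, Ugt1a6a 0.19 and Ugt2b34 0.10. Cyp2d26 turned without knockout 1 (-0.11), knockout 3 (-0.21) and wildtype 3 (-0.011), and Mgst1 without knockout 3 (-0.013). The cause of these turns was not tested. Probes near background limit what can be said of dim genes.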
